A study of Mus musculus with 6 samples.

Results

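The metalloproteinases of the metzincin type and their tissue inhibitors were followed in the mouse lung epithelial cell line MLE-12. Members were the protein-coding genes of the GENCODE vM21 annotation whose symbol starts with Mmp, Timp, Adam or Adamts followed directly by a digit. This gave 78 of the 36047 genes in the table: 22 matrix metalloproteinases (MMPs), 33 ADAMs, 19 ADAMTS proteases and 4 TIMPs. Of these, 35 passed the filter on low counts and were among the 13451 genes tested.

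All libraries came from polyA RNA of wild-type MLE-12 cells grown with a low amount of serum. Cells of the PBS group (n = 3 libraries) received the vehicle, and cells of the CSE group (n = 3 libraries) received cigarette smoke extract, an aqueous solution of smoke constituents, at 5% and an optical density of 2. The agent was added at 30% density and cells were collected 24 h later. MLE-12 is a single immortalised line from lung tumours of mice in which the surfactant protein C promoter drove a viral large T antigen, so it stands for distal lung epithelium only in part. The labels' extraction text names lung tissue although each sample is labelled as the cell line, and it is not stated that replicate libraries are separate cultures, so the p-values cover the scatter of these libraries only, and that scatter may be technical.

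MMPs are zinc proteases that are secreted or held at the membrane and cut collagens, elastin and other matrix proteins. ADAMs are membrane proteins that release the outer parts of growth factors, receptors and adhesion molecules, whereas ADAMTS proteases are secreted and cut proteoglycans and other matrix proteins. TIMPs bind the active site of these enzymes and block it, and in smoke-related emphysema an excess of protease over inhibitor is held to damage the alveolar matrix.

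What the proteases share is a zinc site, in which 3 histidines hold the metal and a glutamate takes part in the cut. The codons of that site were read from the coding transcripts of 8 members, picked by hand among abundant MMPs, sheddases and called members. Adam9 and the called member Adam1a also encode the site and are not shown. The codons are given so that the catalytic core can be compared between families. Capitals mark the codons of the 3 histidines, the glutamate and the glycine, and each sequence is 33 bases long, 5′ to 3′ on the coding strand.
Mmp2: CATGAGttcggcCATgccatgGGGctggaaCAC
Mmp14: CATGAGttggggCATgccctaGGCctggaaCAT
Mmp11: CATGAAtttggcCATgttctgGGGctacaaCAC
Mmp28: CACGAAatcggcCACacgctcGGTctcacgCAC
Adam10: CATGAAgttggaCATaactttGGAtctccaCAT
Adam17: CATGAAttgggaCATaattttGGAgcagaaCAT
Adam15: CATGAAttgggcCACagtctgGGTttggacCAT
Adamts7: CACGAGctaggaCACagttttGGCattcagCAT
On GRCm38 the Mmp2 site lies in exon 8 of its main coding transcript (chr8:92839279-92839311, plus strand), that of Mmp14 in exon 5 (chr14:54437627-54437659, plus strand), and that of Mmp11 in exon 5 (chr10:75926931-75926963, minus strand). The Mmp28 site lies in exon 5 (chr11:83444921-83444953, minus strand), the Adam15 site in exon 11 (chr3:89344780-89344812, minus strand) and the Adam17 site in exon 11 (chr12:21336732-21336764, minus strand). An intron interrupts the site in Adam10, between exons 9 and 10 (chr9:70754296-70761585, plus strand), and in Adamts7, between exons 7 and 8 (chr9:90179456-90180640, plus strand). Mmp2 and Mmp14 matched at 27 of 33 bases, and Mmp2 and Mmp11 as well as Adam10 and Adam17 at 26. The least alike pair of the 8 was Mmp28 and Adam17, with 16 equal bases.

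The full site was encoded by 55 of the 74 proteases, that is by all 22 MMPs, 20 of 33 ADAMs and 13 of 19 ADAMTS genes. The cysteine switch, a short motif of the propeptide that keeps the enzyme latent, was searched only as PRCGXPD (X any residue). This spelling was found in 16 of 22 MMPs and in no ADAM or ADAMTS gene. Variant spellings were not counted, so a gene without a match may still carry a switch. Of the ADAMTS genes without the searched site, Adamts1, Adamts4, Adamts9, Adamts15 and Adamts20 carry asparagine in place of the glycine and were not counted, although they are known as active proteases. Among the 32 proteases tested, 24 encoded the site.

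The label of the cells was checked against marker genes. Of 7 epithelial markers, 6 exceeded 1 TPM in a library, among them Krt19, Krt8 and the lung epithelial factor Nkx2-1, while Krt18 stayed under 1 TPM; the summed level of the list lay at 1300 to 1410 TPM in PBS and 720 to 813 TPM in CSE. TPM is a level per transcript length, scaled to the same total in every library, and is the scale used here to compare genes. Neutrophil markers were at 0 counts for 4 of 5 genes. Of 7 leukocyte and macrophage markers, 4 exceeded 1 TPM in a library (Cd14, Cd68, Csf1r and Lyz2), while Adgre1 and Marco were at 0. That list summed to 8.96 to 11.3 TPM in PBS and 7.78 to 10.5 TPM in CSE. Endothelial markers, 2 of 5 above 1 TPM in a library (Pecam1 and Vwf), summed to 2.28 to 2.9 TPM in PBS and 1.42 to 3.41 TPM in CSE, with Cdh5 at 0. Fibroblast markers, 3 of 6 above 1 TPM, summed to 868 to 1130 TPM in PBS and 477 to 544 TPM in CSE, nearly all of it Dcn (17.5 to 18.4 and 12.9 to 14.2 TPM without it), and all 4 mesothelial markers were present at 195 to 220 TPM in PBS and 60.8 to 69.1 TPM in CSE. The epithelial, fibroblast and mesothelial sums were thus lower in CSE, carried by Krt19, Dcn, Msln and Upk3b, while Pdgfra of the fibroblast list and Csf1r of the leukocyte list were called higher (log2 changes 0.84 and 0.94; edgeR, adjusted p = 0.00125 and 0.0147) and Wt1 was at 6.34 TPM in PBS against 6.17 TPM in CSE. In TPM, however, Csf1r was at 1.66, 1.57 and 2.05 in PBS and at 2.02, 1.8 and 2.17 in CSE, and the groups overlapped. The part of these markers in the results was not tested.

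MLE-12 cells expressed a part of these genes. Taking a PBS mean of 1 TPM or more as the limit, 19 of 78 members were expressed: 7 MMPs, 5 ADAMs, 4 ADAMTS proteases and 3 TIMPs, of which 10 reached 10 TPM. The 19 were Timp2, Timp3 and Timp1; Mmp11, Mmp2, Mmp14, Mmp17, Mmp23, Mmp28 and Mmp15; Adam15, Adam17, Adam9, Adam10 and Adam1a; and Adamts9, Adamts7, Adamts10 and Adamts16. All but Adamts9 of the 16 expressed proteases encoded the full zinc site in an annotated coding transcript. The count did not ask whether that transcript was itself expressed.

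**Figure D1:**
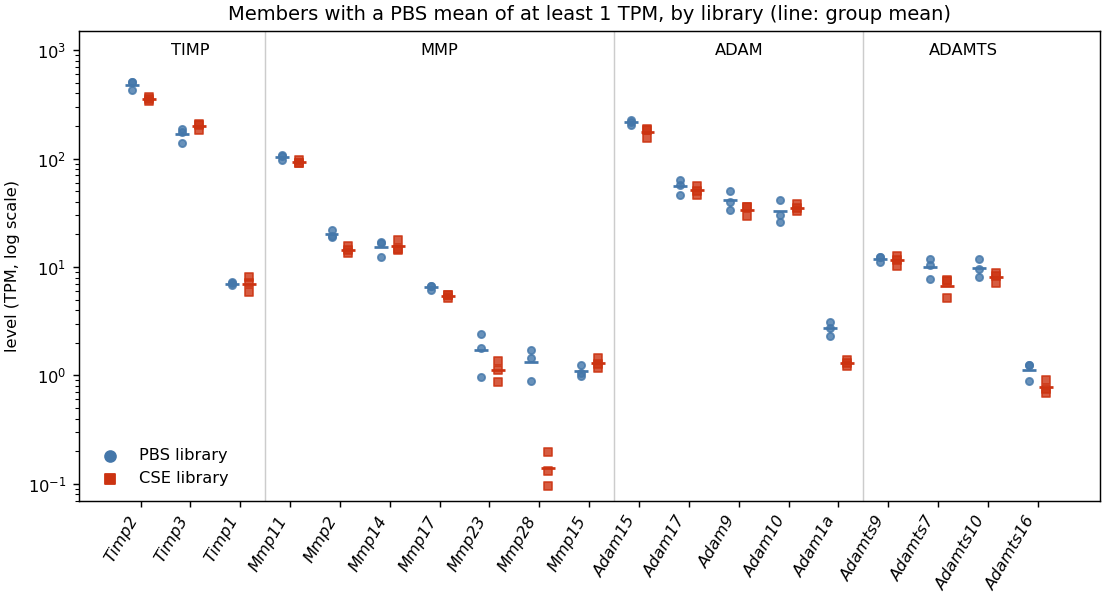
Level by library of each member with a PBS mean of 1 TPM or more (points) with the group mean (line); the vertical axis is TPM on a log scale, PBS in blue circles and CSE in red squares. Timp2, Adam15, Timp3 and Mmp11 are the 4 highest, and Mmp28 is the member whose groups lie farthest apart.

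Transcripts of the inhibitors exceeded those of the MMPs alone in every library. The summed level of the 4 TIMPs was 658 ± 72.6 TPM (SD, n = 3) in PBS and 561 ± 30.2 TPM in CSE, against 153.5 ± 11.4 and 134.6 ± 1.63 TPM for the 22 MMPs. The sum of the ADAMs was 352.8 ± 29.5 TPM in PBS against 301.5 ± 9.07 TPM in CSE. The ADAMTS proteases summed to 37.8 ± 5.44 and 31.3 ± 3.86 TPM. The ratio of TIMP to MMP transcripts was 4.91, 3.65 and 4.37 in PBS and 4.39, 4.23 and 3.89 in CSE, and the groups overlapped. This ratio leaves out the ADAMs and ADAMTS proteases, and transcript levels do not give the balance of the proteins or of their activity. On the total of all transcripts, coding or not, 1 gene carried most of each of 3 families: Timp2 62.7% to 74.4% of TIMP transcripts, Mmp11 67.2% to 71.4% of MMP transcripts and Adam15 53.7% to 64.0% of ADAM transcripts. On coding transcripts alone the PBS mean was 84.2 TPM for Adam15, beside 48.6 TPM for Adam17, 41.03 TPM for Adam9 and 32.2 TPM for Adam10.

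No count was found in any library for 14 members: Mmp1b, Mmp7, Mmp8 and Mmp10, and Adam3, Adam7, Adam18, Adam24, Adam25, Adam26a, Adam26b, Adam29, Adam34 and Adam6b. In libraries of 12093009 to 24050167 estimated counts, 0 allows up to 3 counts, which correspond to between 0.126 and 0.25 CPM. A further 21 members had 1 to 20 counts over the 6 libraries, and 8 had more but missed the filter. Of the 9 MMP genes that lie side by side on chromosome 9 (chr9:7272514-7699585), which include collagenases and stromelysins, none reached 1 TPM in PBS, 4 had no count and 2 were tested.

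The 2 MMPs most often discussed in smoke-exposed lung, the macrophage elastase Mmp12 and the gelatinase Mmp9, were barely present. Mmp9 had 0, 1 and 1 counts in PBS and 1, 2 and 2 in CSE; the ratio of CSE to PBS after scaling for depth was 2.41 with a 95% counting interval of 0.394 to 25.3, and the exact permutation test over the libraries (two-sided) gave p = 0.2, where 3 against 3 cannot go below 0.1. Mmp12 had 20, 29 and 21 counts in PBS and 13, 26 and 15 in CSE, all of them assigned to transcripts annotated as a retained intron or as targets of nonsense-mediated decay and none to a coding transcript. Its log2 change (CSE against PBS) was -0.42 ± 0.30 (SE; edgeR quasi-likelihood test with Benjamini-Hochberg adjustment, adjusted p = 0.402).

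The comparison of CSE with PBS asks which of these genes respond to smoke extract in lung epithelial cells. Of the 35 members tested, 5 were lower in CSE (Mmp28, Adam1a, Timp2, Mmp2 and Adamts7), none was higher and 30 were not called. Mmp28 passed the count filter only through its PBS libraries, where it was high, so its place among the 5 is not independent of the filter. With the same test, edgeR's quasi-likelihood test with adjustment over all 13451 genes, 7.12% of all tested genes were lower, 4.32% higher and 11.4% called in either direction. The 5 of 35 members (14.3%) were close to the share called in either direction. All 5 were lower, and for that direction alone the share of all tested genes was 7.12%. Whether the members differ from these shares was not tested. In bulk RNA, fewer cells that express a gene and less RNA per cell cannot be told apart. The median log2 change of the tested members was -0.11, with 15 above and 20 below 0, beside a median of 0.0056 over all tested genes, 50.9% of which were above 0. TPM of the groups did not overlap, with CSE lower, for 8 tested members (22.9%, against 19.3% of all tested genes), namely the 5 called and Adam15, Mmp11 and Mmp17; no tested member showed the reverse, as 7.89% of all tested genes did. With each library's trend with GC content and length taken out, 882 genes were higher and 870 lower, in place of 581 and 958, and of the members 1 (Timp3) was higher and 3 (Adam1a, Adamts7 and Mmp28) lower. The count of called members depended on single libraries: it was 1 (Mmp28) without the CSE 2 library, 2 (Adam1a and Mmp28) without CSE 3 or PBS 3, and 3 without CSE 1.

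**Figure D2:**
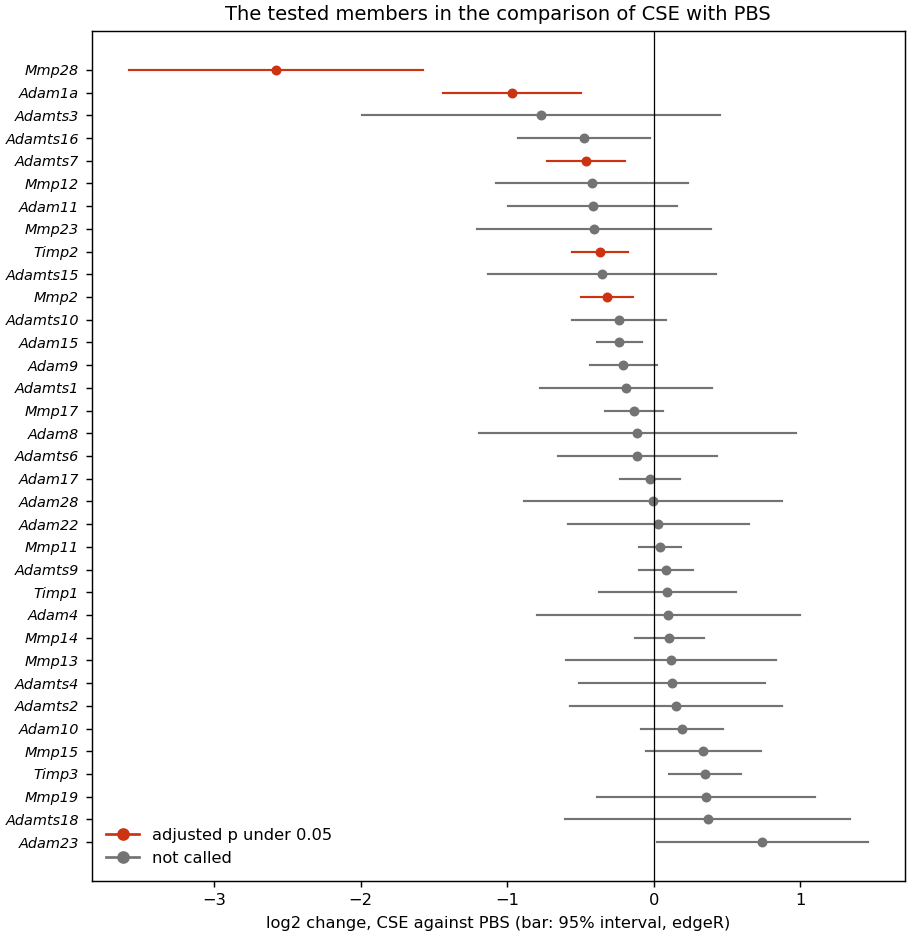
The log2 change of CSE against PBS for each of the 35 tested members (points) with its 95% interval (bars), from edgeR; red marks an adjusted p under 0.05. The 5 called members lie left of 0, and Mmp28, which passed the count filter through its PBS libraries alone, lies farthest from it at -2.58.

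Among the inhibitors, Timp2 fell and the other tested TIMPs were not called. Timp2 (chr11:118301069-118355740), which inhibits MMPs and also takes part in the activation of pro-MMP2 by the membrane enzyme MMP14, was at 506, 428 and 514 TPM in PBS and at 371, 353 and 338 TPM in CSE. Every CSE library lay below every PBS library. Its log2 change was -0.37 ± 0.09 (SE; edgeR quasi-likelihood test, adjusted p = 0.0203), on 44046 and 54898 estimated counts in CSE and PBS. Almost all of its TPM, 99.9%, came from 1 coding transcript, which shared no 31-base word with transcripts of other genes. The call was lost without CSE 1 (adjusted p = 0.0758), CSE 2 (0.0975), CSE 3 (0.0954) or PBS 3 (0.0823) in edgeR's test, with log2 changes of -0.38 to -0.36, and when each library's trend with GC content and length was removed (-0.27, adjusted p = 0.0622).

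Timp3 (chr10:86300372-86349506), the inhibitor that binds the extracellular matrix and also blocks ADAM17, had the opposite sign without being called. Its levels were 178, 140 and 187 TPM in PBS and 211, 204 and 184 TPM in CSE, and the groups overlapped through PBS 3 and CSE 3. The log2 change was 0.35 ± 0.11 (SE; 95% interval 0.11 to 0.59; edgeR quasi-likelihood test, adjusted p = 0.0694), and it was 0.44 without PBS 1 (adjusted p = 0.0252) but 0.21 without PBS 2 (0.0847). Without another library the adjusted p was 0.117 to 0.188 in edgeR's test. Of the 31-base words of its main transcript, 36.7% also occur in transcripts of other genes, most often Syn3, a gene that overlaps it. Reads could thus be shared between these genes.

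The mix of the inhibitors therefore differed between the groups. Timp2 transcripts outnumbered those of Timp3 by 2.84, 3.06 and 2.74 times in PBS and by 1.76, 1.73 and 1.83 times in CSE. The groups did not overlap in this ratio, which was chosen after the values were seen and was not tested. Timp2 made up 73.2%, 74.4% and 72.5% of TIMP transcripts in PBS and 62.8%, 62.7% and 63.8% in CSE.

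**Figure D3:**
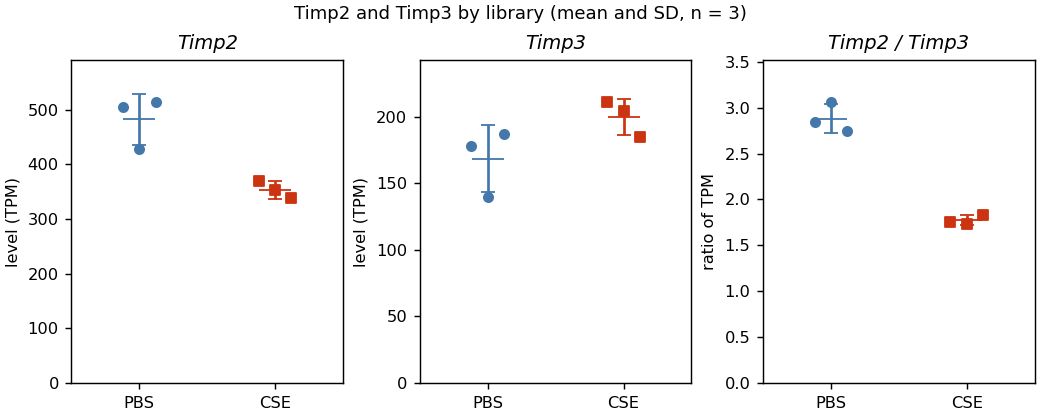
Timp2 level, Timp3 level and the ratio of Timp2 to Timp3 by library (points), with mean and SD (n = 3 per group); the vertical axes are TPM and a ratio of TPM, and all start at 0. The Timp2 groups and the ratio do not overlap, while the Timp3 groups do.

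Timp1, an inhibitor that is often induced by cytokines and growth factors, was low and not called. It was at 7.08, 6.84 and 7.22 TPM in PBS and at 8.03, 5.87 and 7.15 TPM in CSE, with a log2 change of 0.09 (95% interval -0.38 to 0.56). Timp4 had 1, 5 and 3 counts in PBS and 4, 4 and 4 in CSE, too few to test in the model; CSE to PBS was 1.28 after depth scaling (counting interval 0.496 to 3.45), and the exact permutation p was 0.4.

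Among the MMPs, Mmp28 and Mmp2 fell. Mmp28 (epilysin, chr11:83440768-83463071), a secreted, furin-activated MMP of resting epithelia, was at 0.89, 1.44 and 1.70 TPM in PBS and at 0.20, 0.095 and 0.13 TPM in CSE. Every CSE library lay below every PBS library, and the reads were few. There were 14, 18 and 29 counts in PBS against 4, 4 and 2 in CSE, which gives a CSE to PBS ratio of 0.158 after depth scaling (95% interval from counting 0.0721 to 0.31), and the gene passed the count filter through its PBS libraries alone. Its log2 change was -2.58 ± 0.45 (SE; edgeR quasi-likelihood test, adjusted p = 0.00396). Since it entered the filtered test through the group where it was high, the test was also read without a filter on low counts. There the log2 change was -2.56 ± 0.55 (SE; edgeR, adjusted p = 8.53e-05). That fit used the same few reads, and its smaller adjusted p came with a larger SE, so it is not separate evidence for the change.

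The reads of Mmp28 were divided among transcripts. Mmp28-205, a 692-base processed transcript with no annotated coding sequence, was at 0.463, 1.04 and 1.07 TPM in PBS and was listed at 0 in all CSE libraries. The coding transcript Mmp28-202 was at 0.429, 0.187 and 0.55 TPM in PBS and at 0.13, 0.0636 and 0 TPM in CSE. These transcripts were lower in CSE, while the coding transcript Mmp28-204 had a mean of 0.0287 TPM in PBS and 0.0716 TPM in CSE, on 1.34 and 3.05 estimated counts. Summed over coding transcripts alone, Mmp28 had a log2 change of -2.24 (edgeR, adjusted p = 0.0178). Of the 31-base words of Mmp28-202, 12.8% occur in transcripts of other genes, most often 1700020L24Rik.

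**Figure D4:**
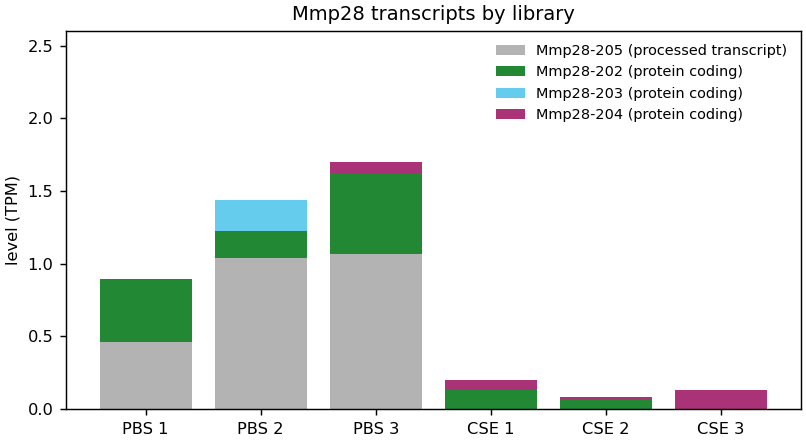
Level of the annotated Mmp28 transcripts (stacked bars, TPM, axis from 0) in each library; transcripts under 5% of the gene's TPM in both groups are left out. Mmp28-205 (grey) is at 0.463 to 1.07 TPM in the PBS libraries and at 0 in all CSE libraries.

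The bases just before the start of Mmp28 were read from the RefSeq promoter table (build GRCm38.p6), because this gene had the largest change among the members. They are shown for the stretch outside annotated exons (chr11:83463072-83463290, minus strand), in lower case since none of the motifs searched was found.
Mmp28 promoter: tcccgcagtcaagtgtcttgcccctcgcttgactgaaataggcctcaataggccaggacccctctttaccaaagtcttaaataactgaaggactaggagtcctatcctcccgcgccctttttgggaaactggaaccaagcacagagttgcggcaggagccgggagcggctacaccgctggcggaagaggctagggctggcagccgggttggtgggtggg
The 250 bases before the start were searched on both strands for 3 motifs: TGANTCA (AP-1), GCGTG (the core bound by the aryl hydrocarbon receptor) and TGACNNNGC (the antioxidant response element). The table held 48 of the 78 members, among them Mmp28, Adam1a and Timp2 of the called ones. Adam1a had 3 matches to GCGTG, Timp2 had 1 to GCGTG and 1 to TGACNNNGC, and Timp3 had 1 to GCGTG. All 250 bases searched for Adam1a, 203 of those for Timp2, 40 for Timp3 and 31 for Mmp28 lie in GENCODE exons of the gene itself. Of 32851 promoters, 28.2% held GCGTG, 10.2% TGACNNNGC and 6.75% TGANTCA. These matches describe letters only.

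Mmp2 (gelatinase A, chr8:92827291-92853420), which cuts type IV collagen of basement membranes, was the second most abundant MMP. It was at 19.1, 19.4 and 22.1 TPM in PBS and at 14.3, 15.6 and 13.6 TPM in CSE, with no overlap between the groups. The log2 change was -0.32 ± 0.08 (SE; edgeR quasi-likelihood test, adjusted p = 0.0271). Its main coding transcript, Mmp2-201, was at 14.5, 14.2 and 15.6 TPM in PBS and 12.2, 11.1 and 11.3 TPM in CSE, while the retained-intron transcript Mmp2-204 was at 2.09, 2.22 and 1.2 TPM in PBS and listed at 0 in CSE. With coding transcripts alone the log2 change was -0.28 and was not called (edgeR, adjusted p = 0.0765). The call was also lost in edgeR's test without CSE 1 (adjusted p = 0.0855), CSE 2 (0.124), CSE 3 (0.0971), PBS 1 (0.0527) or PBS 3 (0.083), and once the GC and length trend was taken out (0.0936).

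Mmp14 (chr14:54431612-54445364), the membrane enzyme that activates pro-MMP2, was at 12.3, 16.8 and 17.03 TPM in PBS and 17.9, 14.7 and 14.5 TPM in CSE. The groups overlapped, and the log2 change of 0.11 had a 95% interval of -0.13 to 0.34. Mmp2 was thus lower without a called change of its activator, while Timp2, which bridges the pair, was lower as well. Whether the changes of Mmp2 and Mmp14 differ from each other was not tested.

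Mmp11 (stromelysin-3, chr10:75923222-75936496), another furin-activated MMP, was the most abundant MMP of the line. It was at 97.9, 106 and 109 TPM in PBS and at 91.3, 92.0 and 97.4 TPM in CSE. The groups did not overlap in TPM, with CSE lower, yet the count-based log2 change was 0.04 (95% interval -0.10 to 0.18), and with an offset for effective transcript length it was -0.08. The short transcript Mmp11-203 (335 bases, annotated as a target of nonsense-mediated decay) was at 17.6, 16.02 and 16.1 TPM in PBS and at 2.34, 3.51 and 20.5 TPM in CSE, and the long coding transcript Mmp11-201 at 67.9, 76.4 and 76.8 TPM in PBS and 80.5, 71.4 and 69.0 TPM in CSE. The sign for Mmp11 thus differed between the counts and the values per length, the cause was not tested, and no direction was called.

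The other expressed MMPs were not called. Mmp17, held at the membrane by a lipid anchor, was at 6.15, 6.70 and 6.63 TPM in PBS and at 5.53, 5.55 and 5.15 TPM in CSE, with a log2 change of -0.14 that turned to 0.05 once the GC and length trend was removed. Mmp15, a membrane-type relative of Mmp14, had a log2 change of 0.34 ± 0.18 (SE) at 1.10 TPM in PBS and 1.30 TPM in CSE. Mmp23 had a log2 change of -0.41 ± 0.36 (SE) at 1.72 and 1.12 TPM.

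Among the ADAMs, the sheddases Adam10 and Adam17 were expressed at a level that did not detectably change. Adam17 (chr12:21323509-21373632), which releases tumour necrosis factor and ligands of the epidermal growth factor receptor, was at 45.9, 57.6 and 63.5 TPM in PBS and at 56.2, 46.1 and 50.5 TPM in CSE. Its log2 change was -0.03 with a 95% interval of -0.23 to 0.18, and it turned positive, to between 0.01 and 0.05, without CSE 2, PBS 2 or PBS 3. Adam10 (chr9:70678997-70780229), which releases Notch, cadherins and many other surface proteins, was at 30.0, 26.1 and 41.9 TPM in PBS and at 37.8, 32.8 and 34.8 TPM in CSE, with a log2 change of 0.19 (95% interval -0.09 to 0.47). For both genes the CSE values lay within the range of the PBS values.

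Adam15 (chr3:89338542-89349996), a membrane protein with both protease and integrin-binding parts, had the highest total TPM of the proteases and was not called; on coding transcripts alone Mmp11 was higher, at 87.2 against 84.2 TPM in PBS and 84.5 against 68.8 TPM in CSE. It was at 205, 226 and 218 TPM in PBS and at 156, 189 and 184 TPM in CSE, and every CSE library lay below every PBS library. The log2 change was -0.24 ± 0.07 (SE; edgeR quasi-likelihood test, adjusted p = 0.0551), and it passed the threshold without PBS 1 (adjusted p = 0.0308). Only 39.0% of its TPM in either group lay on coding transcripts: the 554-base processed transcript Adam15-209 was at 88.6, 86.6 and 68.1 TPM in PBS and the coding Adam15-202 at 50.3, 58.4 and 69.9 TPM. Counted on coding transcripts, Adam15 was at 71.5, 83.0 and 98.2 TPM in PBS and at 73.0, 69.5 and 64.0 TPM in CSE, where the groups overlapped. Of the 31-base words of Adam15-202, 19.5% occur in transcripts of other genes, most often 4731419I09Rik.

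Adam9, a widely expressed sheddase, was at 33.8, 39.9 and 49.8 TPM in PBS and at 35.6, 35.9 and 29.9 TPM in CSE, with a log2 change of -0.21 ± 0.10 (SE) that was not called. Adam1a (chr5:121518576-121545482), one of the genes for the fertilin alpha subunit known from sperm, was low and fell. It was at 2.75, 3.14 and 2.31 TPM in PBS and at 1.22, 1.38 and 1.29 TPM in CSE, with no overlap. The log2 change was -0.97 ± 0.21 (SE; edgeR quasi-likelihood test, adjusted p = 0.0139), on 318 and 171 counts, and without CSE 2 the adjusted p was 0.0503. The identity of these reads is uncertain: 53.4% of the 31-base words of Adam1a-201 occur in other genes, most often Adam1b, and all of those of Adam1a-202 do, most often Gm42878. Adam1b itself, a member, had 1 count in all.

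Among the ADAMTS proteases, Adamts7 fell. Adamts7 (chr9:90163069-90208071), which cuts cartilage oligomeric matrix protein and is known from vascular remodelling, was at 7.74, 11.8 and 10.4 TPM in PBS and at 7.64, 7.40 and 5.18 TPM in CSE. The groups did not overlap, although PBS 1 and CSE 1 lay side by side. The log2 change was -0.46 ± 0.12 (SE; edgeR quasi-likelihood test, adjusted p = 0.0301). Most of its TPM lay outside coding transcripts, and the retained-intron transcript Adamts7-203 was at 3.76, 7.32 and 5.31 TPM in PBS and 3.11, 4.31 and 2.46 TPM in CSE. With coding transcripts alone the log2 change was -0.21 and was not called (edgeR, adjusted p = 0.589). The call was also lost in edgeR's test without CSE 2 (adjusted p = 0.0862), CSE 3 (0.131), PBS 2 (0.0626) or PBS 3 (0.104), and with an offset for effective length (0.105).

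Adamts9, which cuts versican and aggrecan, was at 11.1, 12.4 and 12.5 TPM in PBS and at 12.8, 11.7 and 10.2 TPM in CSE, and its log2 change of 0.08 took the other sign on the TPM scale. Adamts10, known for its part in fibrillin microfibrils, was at 8.08, 11.9 and 9.56 TPM in PBS and at 8.87, 8.21 and 7.10 TPM in CSE, with a log2 change of -0.24 ± 0.15 (SE). Adamts16 was at 0.890, 1.25 and 1.24 TPM in PBS and at 0.913, 0.687 and 0.751 TPM in CSE (log2 change -0.48 ± 0.20, SE). None of these 3 was called.

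How much of a member's level lay on transcripts that can encode the protein differed widely among members. All TPM of Timp2, Timp1, Adam1a and Mmp15 was assigned to coding transcripts, as was 97.5% or more of that of Adam10, Adam9 and Mmp14. The share was 75.3% in PBS and 84.0% in CSE for Mmp2, 37.5% and 46.1% for Adamts7, 47.4% and 49.3% for Adamts9, 19.3% and 23.7% for Adamts10, and 0% for Mmp12. Division of reads among transcripts of 1 gene is a model estimate, and a short transcript gives many TPM per read.

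**Figure D5:**
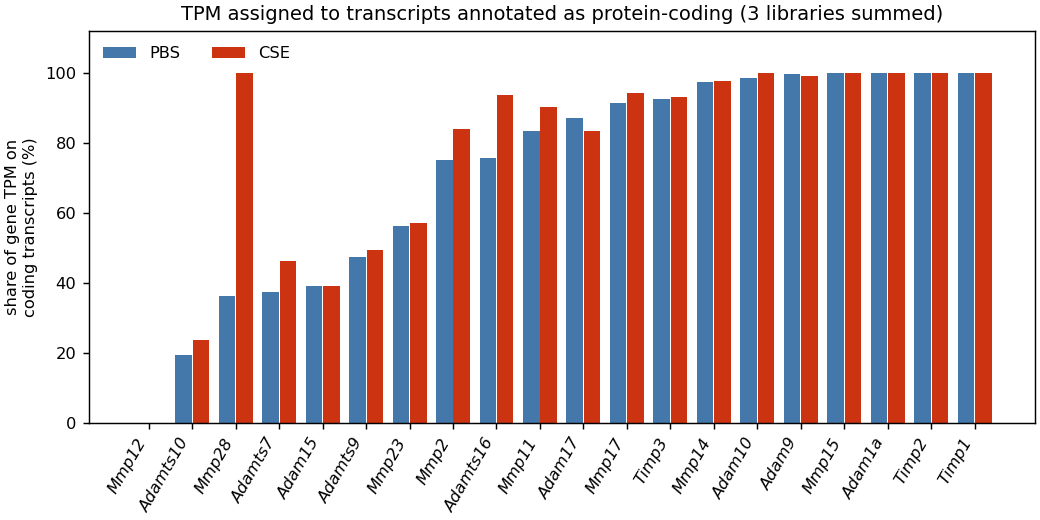
Share of TPM that was assigned to transcripts annotated as protein-coding, in percent, for each named member that was tested (without Mmp9 and Timp4). The 3 libraries of a group are summed (PBS blue, CSE red, axis from 0). The share is 0 for Mmp12, 39.0% for Adam15 and 100% for Timp2, and for Mmp28 it is 36.2% in PBS and 100% in CSE, the latter on 10 counts.

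Genes that act with these proteases were read from the same test. Of 31 regulators of metalloproteinases, 24 were tested, of which 2 were higher, 9 lower and 13 not called (4.32% and 7.12% of all tested genes were higher and lower), with a median log2 change of -0.28. Tspan15, a tetraspanin partner that guides ADAM10 to some substrates, fell from 110, 110 and 122 TPM in PBS to 68.6, 57.5 and 48.3 TPM in CSE (log2 change -0.91 ± 0.07, SE), while Adam10 itself was not called. Pcsk5, a proprotein convertase, fell from 10.8, 11.5 and 12.5 to 6.05, 5.91 and 5.00 TPM (-0.97 ± 0.08, SE), and Plat, tissue plasminogen activator, fell from 206, 218 and 240 to 126, 128 and 117 TPM (-0.76 ± 0.07, SE). The groups did not overlap for any of these 3. The number lower was 8 without CSE 2 or CSE 3 and with the GC and length trend taken out. In each of these cases Rhbdf2, an ADAM17 adaptor, lost its call.

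Of 33 membrane proteins known to be shed by these enzymes, 29 were tested, of which 3 were higher, 6 lower and 20 not called (against 4.32% and 7.12% of all tested genes), with a median log2 change of -0.0040. With the GC and length trend taken out, 5 were higher and 5 lower. Ereg and Areg, ligands of the epidermal growth factor receptor that ADAM17 releases, rose: Ereg from 1.74, 1.97 and 1.82 TPM in PBS to 6.10, 4.81 and 4.71 TPM in CSE (log2 change 1.57 ± 0.14, SE), and Areg from 16.3, 13.1 and 13.1 to 40.6, 34.7 and 40.3 TPM (1.54 ± 0.14, SE). Egf, a ligand shed by ADAM10, fell from 9.14, 10.6 and 11.3 to 6.22, 4.58 and 5.05 TPM (-1.09 ± 0.12, SE). Ager, the receptor for advanced glycation end products and a marker of alveolar epithelium, fell from 171, 192 and 186 to 76.0, 77.8 and 66.8 TPM (-1.23 ± 0.07, SE). Substrate transcripts thus moved in both directions while the transcripts of the sheddases Adam10 and Adam17 were not called. The number lower was also 5 without CSE 2, CSE 3 or PBS 3, with the effective-length offset, with a replicate block and in both limma fits on TPM. Notch1 lost its call in each of these cases. Without PBS 2 the number lower was 8.

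Of the 8 listed ADAMTS relatives that lack a protease domain, 7 were matched and 5 tested, of which 2 were lower (7.12% of all tested genes were), none higher and 3 not called, with a median log2 change of -0.43. Adamtsl5 fell from 17.6, 25.6 and 22.1 TPM in PBS to 10.4, 9.14 and 8.49 TPM in CSE (log2 change -1.07 ± 0.12, SE). Adamtsl1 fell from 15.3, 25.2 and 19.0 to 13.6, 12.3 and 12.8 TPM (-0.43 ± 0.10, SE). Its call was lost without CSE 2, CSE 3 or PBS 3, with the GC and length trend taken out and with coding transcripts alone. It was also lost with the effective-length offset, with a replicate block and in both limma fits on TPM. Each of these settings left 1 of the list lower. Adamtsl4, which takes part in microfibril assembly, and Thsd4 had log2 changes of -0.15 ± 0.07 and -0.44 ± 0.17 (SE) and were not called.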

How the data were processed

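RNA-seq of 6 MLE-12 libraries was used. The deposited files hold, for each of 118489 transcripts, a kallisto estimated count and its TPM, per the file headers. FastQC 0.12.1, fastp 0.20.1, kallisto 0.46.2, DESeq2 1.40.2 and GRCm38 appear in the submitters' processing notes, without roles; for strand and index settings, the sources used here give none. TPM values, as deposited, add up to an equal total per library and carry no depth.

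Transcripts were matched by identifier to GENCODE vM21 on GRCm38 (116816, or 98.6%). The 1673 unmatched ones held 0.638% to 0.664% of counts and were dropped. Both measures were then added up by gene, and the sums of counts rounded. Libraries held 12093009 to 24050167 counts. Libraries of a group differed by more than sampling noise (chi-square per degree of freedom 5.61 to 17.7). Counting intervals (95%, exact binomial) cover counting error only.

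The groups were compared in edgeR (quasi-likelihood test, two-sided) after TMM scaling (factors 0.976 to 1.03), filterByExpr with a minimum count of 10, treatment as the only factor, Benjamini-Hochberg adjustment over all tested genes and a threshold of 0.05; the biological coefficient of variation was 9.17%. The fit was tested on simulated data. Members, gene lists, tests and alternatives were chosen with earlier results of these data known. Values are given for all TIMPs, members with at least 1 TPM in a group, called members, 6 members chosen by name (Mmp9, Mmp12, Mmp2, Mmp14, Adam10 and Adam17), and the 4 of smallest p in each of the 3 gene lists, of which 1 is not reported here; Rhbdf2, Notch1, Adam1b, single marker genes and the ratio of Timp2 to Timp3 were added after values were seen.

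Zinc sites (HEXXHXXGXXH, X any residue) and cysteine switches (PRCGXPD) were searched in translated GENCODE coding transcripts, since no RefSeq protein table was used here. Shared sequence was counted as 31-base words. The alternatives were DESeq2, limma-voom, RLE or library-size scaling, no filter or a stricter one (mean of 5 CPM), an effective-length offset, limma on log2(TPM + 1) and log2(TPM + 0.1), loess removal of GC and length trends (span 0.5), a replicate block, each library left out, and, chosen after seeing the data, coding transcripts alone. Fits ran in R 4.3.3 with DESeq2 1.42.0, edgeR 4.0.16 and limma 3.58.1, and tables and plots were made in Python 3.11.15 with matplotlib 3.10.9 and pandas 2.3.3.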

Additional observations from a re-analysis of the deposited data

How the results depend on the processing

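The 5 called members became 3 with coding transcripts alone (Adam1a, Mmp28 and Timp2), 2 with limma on log2(TPM + 0.1) (Mmp2 and Timp2), 3 with limma on log2(TPM + 1) (these and Adam1a), and 1 to 6 with each library left out; limma on TPM tested 17 members, without Mmp28. Timp3 was called higher with DESeq2 (adjusted p = 0.0155), with the GC and length trend removed (0.0414) and without a filter (0.00128), and Adam15 lower with DESeq2 (0.0379), limma-voom (0.045) and the 5 CPM filter (0.0395). DESeq2 gave Mmp28 no adjusted p. Over all genes, the 1539 calls became 985 with limma on log2(TPM + 0.1), 998 on log2(TPM + 1), and 837 to 1941 with each library left out. Removal of the GC and length trend turned the share of higher calls from 37.8% to 50.3%, no filter to 47.9%, omission of PBS 1 to 49.8%, and limma on TPM to 22.3% and 22.4%. Members expressed were 29 with a limit of 0.5 TPM.

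Replicate numbers are shared between the groups, and no pairing by number was seen. Correlations of the deviations of same-numbered libraries were -0.124, 0.0061 and -0.0594, and no PBS library matched its own number best. With 3 libraries per group a weak pairing could go unseen. With the replicate block, 2 members (Adam1a and Mmp28) and 1022 genes were called.

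Signs turned only for members that were not called. With each library left out, Adam17 had log2 changes of -0.0982 to 0.0495 and Timp1 of -0.000604 to 0.239; they turned sign without CSE 2 (0.0495), PBS 2 (0.012) and PBS 3 (0.015) for Adam17 and without CSE 3 for Timp1. Adamts9 had -0.0585 and -0.0541 with limma on log2(TPM + 0.1) and log2(TPM + 1), Mmp11 -0.157 and -0.156 in the same fits and -0.0793 with the effective-length offset, and Timp1 -0.0184 and -0.0152 with limma on log2(TPM + 0.1) and log2(TPM + 1). Mmp17 had 0.0531 with the GC and length trend removed. The causes were not tested. Few counts limit what can be said of Mmp28 (71 over all libraries), Timp4 (21) and Mmp9 (7).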
